A study of Mus musculus with 24 samples.

Results

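The genes described here are 35 genes of DNA replication and of the passage from G1 into S phase, followed across 4 mouse liver genotypes. They were taken by name from a list of replication factors, nucleotide enzymes, E2F factors and E-type cyclins, and all 35 are present among the 24319 genes of both deposited tables. The study sequenced polyA RNA of 24 samples, all from male mice aged 2 months, in 8 groups of 3 biological replicates. The genotypes were Alb-Cre+;IkkBf/f;Shp2f/f (Double KO), Alb-Cre+;Shp2f/f (Shp2 KO), Alb-Cre+;IkkBf/f (IkkB KO) and wild type (WT), each as whole liver and as isolated hepatocytes, on a C57/BL6 background. Shp2 is a tyrosine phosphatase needed for full Ras-Erk signalling downstream of growth factor receptors, and IkkB is the kinase that switches on NF-κB. Cre under the albumin promoter acts in hepatocytes and, because their shared precursors use it too, can also act in bile duct cells. The controls are described as wild type, so effects of Cre or of the floxed alleles themselves cannot be told apart from those of the deletions.

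Each table gives 1 pooled expression value per gene and genotype and no value per replicate, so there is no SD and no library depth to report. The header names no unit; the values are called FPKM here (fragments scaled by transcript length and by sequencing depth), which is what Cuffdiff writes by convention. "Rose" and "fell" mark members with a q-value under 0.05 in the authors' deposited table, among genes that Cuffdiff tested and that reached 0.1 FPKM in 1 of the genotypes compared. With no value per replicate, the spread between replicates enters the results only through the authors' Cuffdiff test. Whole liver and hepatocytes come from separate tables, and no difference between these was tested. The deletions were visible in the targeted transcripts: Ikbkb had 6.31 FPKM in Double KO, 14.2 in Shp2 KO and 9.48 in IkkB KO, against 15.7 in WT livers. Ptpn11, which encodes Shp2, had 6.09 FPKM in Double KO, 4.09 in Shp2 KO and 10.1 in IkkB KO, against 12.5 in WT livers.

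Before S phase, the origin recognition complex, Cdc6 and Cdt1 load the Mcm2 to Mcm7 ring, the core of the replicative helicase, onto DNA. Cdc45 and the GINS complex then activate the helicase, and polymerases copy DNA with the sliding clamp Pcna. Transcription of many of these genes is driven by E2F factors, which are released when cyclin-dependent kinases inactivate the Rb proteins. Most hepatocytes of an adult mouse are quiescent, and many of these transcripts are kept low until the liver regenerates.

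These transcripts were scarce in every genotype. In whole liver, the median over the 35 members was 2.69 FPKM in Double KO, 2.56 in Shp2 KO and 1.49 in IkkB KO, against 1.67 in WT. In isolated hepatocytes, the median was 2.72 FPKM in Double KO, 1.82 in Shp2 KO and 1.96 in IkkB KO, against 1.13 in WT. Pcna, Tk1 and Mcm10 were the 3 members that reached 10 FPKM, in each genotype of both tables. The lowest was Orc1, the largest subunit of the origin recognition complex, at 0.0681 FPKM in Double KO and 0.0403 in WT livers. Double KO had the highest level of the 4 genotypes for 24 members in liver and for 26 in hepatocytes. The lowest level was most often that of IkkB KO in liver (20 members) and that of WT in hepatocytes (21 members). The same counts over all genes were not computed. Against WT alone, Double KO was higher for 84.4% of the tested members in each table. Over all tested genes this share was 46.3% in liver and 51.9% in hepatocytes.

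**Figure D1:**
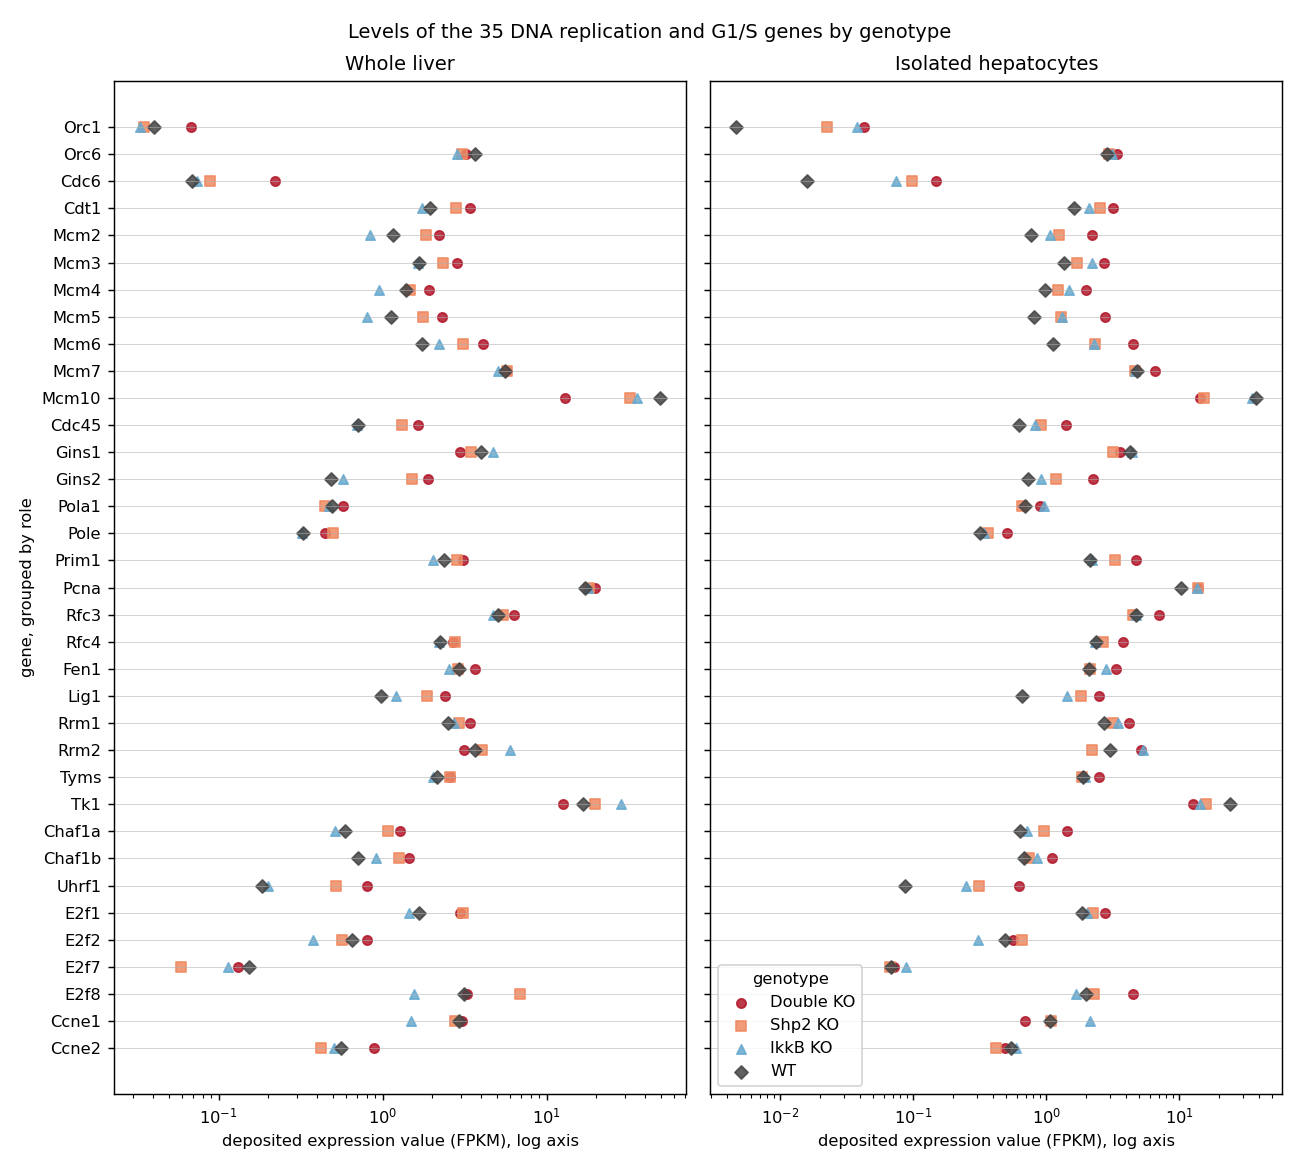
Deposited expression value (FPKM, log axis) of each of the 35 genes in whole liver (left) and isolated hepatocytes (right), 1 pooled value per genotype, with genes grouped by role. The highest level belongs to Double KO for 24 genes in liver and 26 in hepatocytes, and Mcm10 stands apart with its WT level of 49.2 in liver above all other points. The same count over all genes was not computed.

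Set against WT, the members that rose in Double KO were mostly subunits of the helicase ring, its loader Cdt1 and genes of lagging strand processing and chromatin assembly, while Mcm10 fell. In Double KO liver, 11 of 32 tested members rose and 1 fell, where 11.5% of all 12940 tested genes were higher and 6.62% lower. In Double KO hepatocytes, 14 of 32 tested members rose and 1 fell, against 9.04% of all 12174 tested genes higher and 4.56% lower. As shares, 34.4% of the tested members rose in liver and 43.8% in hepatocytes. At these low levels the differences were small on the log2(value + 1) scale: with a difference of at least 1 also required, 0 members were called higher and 1 lower in liver, and 3 higher and 1 lower in hepatocytes. The members' median difference on the log2(value + 1) scale was 0.27 in liver and 0.49 in hepatocytes, beside -0.03 and 0.01 over all tested genes. Orc1, Cdc6 and E2f7 were too low for Cuffdiff to test in any comparison. The 9 members that rose in both tables were Cdt1, Mcm2, Mcm3, Mcm5, Mcm6, Cdc45, Lig1, Chaf1a and Uhrf1, and Mcm10 fell in both. These 9 are 9 of the 11 that rose in liver and 9 of the 14 that rose in hepatocytes. How far the calls of all genes overlap between liver and hepatocytes was not computed.

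Transcripts of several other cell types were also higher in Double KO samples. In Double KO liver, all 10 tested macrophage markers rose, and their summed level was 657 FPKM in Double KO and 244 in WT. There, 5 of 8 tested stellate cell and fibroblast markers rose, with a sum of 193 FPKM in Double KO and 84.6 in WT. Of 2 tested neutrophil markers 2 rose (sum 27.2 in Double KO, 11.2 in WT), of 5 bile duct markers 1 rose, Spp1 (137 in Double KO, 52.5 in WT; the other 4 summed to 5.78 in Double KO and 4.89 in WT), and of 7 endothelial markers 1 rose (77.6 in Double KO, 79.0 in WT). None of 7 tested lymphocyte markers passed the q-value threshold, and their sum was 9.3 FPKM in Double KO and 6.88 in WT livers. In Double KO hepatocytes, 10 of 10 tested macrophage, 6 of 8 stellate cell and 5 of 7 endothelial markers rose, with sums of 306, 61.8 and 68.5 FPKM in Double KO and 101, 27.5 and 37.1 in WT. No marker of these lists was at 0 in all genotypes, and their part in the members' differences was not tested. Single knockout hepatocytes had higher marker levels than WT as well: 9 of 10 tested macrophage markers (sum 241 FPKM) and 5 of 8 stellate cell markers rose in Shp2 KO, and 10 of 10 macrophage (sum 307), 8 of 8 stellate cell and 7 of 7 endothelial markers rose in IkkB KO. In Shp2 KO hepatocytes, 0 of 7 endothelial markers rose. In Shp2 KO liver, 3 of 10 macrophage and 2 of 8 stellate cell markers rose. There, 3 of 7 endothelial, 2 of 7 lymphocyte and 1 of 5 bile duct markers fell. In IkkB KO liver, 2 of 10 macrophage markers rose. There, 3 of 5 bile duct, 1 of 8 stellate cell and 1 of 2 neutrophil markers fell. Of the hepatocyte markers, none of 5 tested in liver and none of 6 tested in hepatocytes passed the q-value threshold between Double KO and WT. In the single knockouts, 1 of 6 fell in Shp2 KO hepatocytes and 1 of 5 in IkkB KO hepatocytes. Apoa1 was listed at 0 in some genotypes and Serpina1a in every one. Without Apoa1, the hepatocyte markers summed to 10300 FPKM in Double KO and 15800 in WT livers, and to 12000 in Double KO and 13500 in WT hepatocytes. In bulk samples, a change in the number of cells of a type and a change in RNA per cell cannot be told apart.

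**Figure D2:**
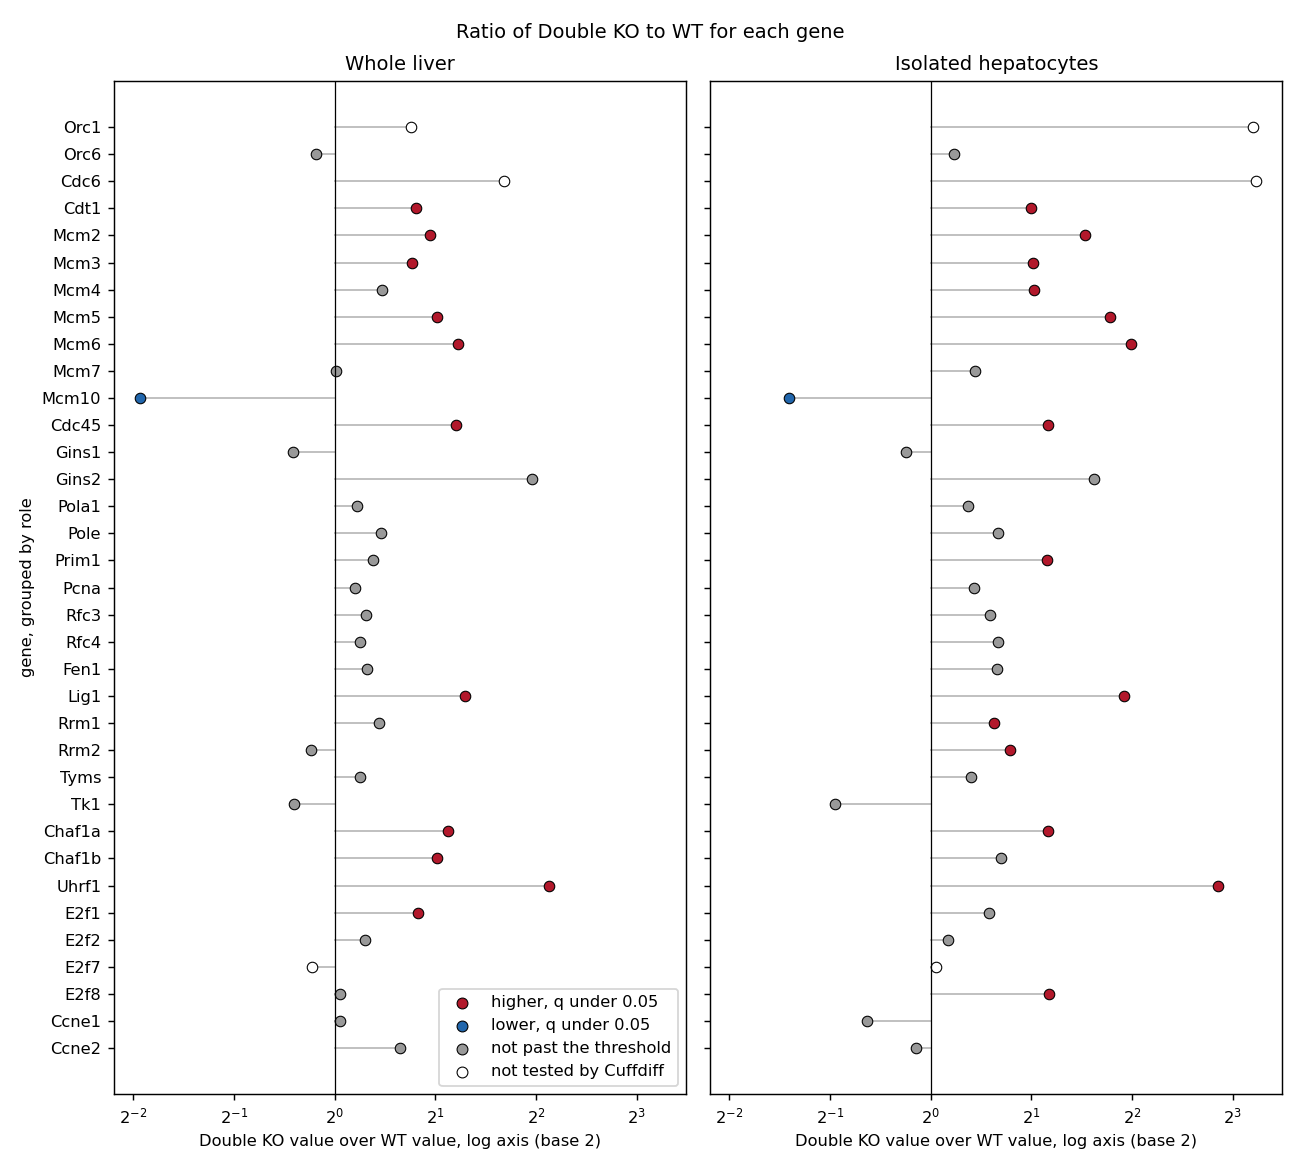
Ratio of the Double KO value to the WT value for each gene (log axis, base 2) in whole liver (left) and isolated hepatocytes (right), with the color of each point marking the Cuffdiff call. In each panel 1 gene is marked lower, Mcm10, while 11 genes in liver and 14 in hepatocytes are marked higher.

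Among the 10 licensing genes, 8 were tested in Double KO against WT. Of these, 5 rose in liver and 6 in hepatocytes, where 11.5% and 9.04% of all tested genes were higher. Mcm6, a subunit of the helicase ring, had 4.07 FPKM in Double KO, 3.1 in Shp2 KO and 2.2 in IkkB KO, against 1.74 in WT livers. Its hepatocyte levels were 4.48 FPKM in Double KO, 2.31 in Shp2 KO and 2.28 in IkkB KO, against 1.13 in WT, and Double KO was thus 2.34 times WT in liver and 3.97 times in hepatocytes. For Double KO against WT, the authors' deposited table gives a liver q of 0.000955 and a hepatocyte q of 0.00048, the smallest of each table. Mcm5, another ring subunit, had 2.29 FPKM in Double KO, 1.75 in Shp2 KO and 0.798 in IkkB KO, against 1.13 in WT livers. In hepatocytes, Mcm5 had 2.77 FPKM in Double KO, 1.28 in Shp2 KO and 1.31 in IkkB KO, against 0.805 in WT. The Double KO level stood above the other 3 genotypes for both subunits in both tables. Against Shp2 KO liver the difference did not pass (Mcm6 q = 0.291 and Mcm5 q = 0.372 in the authors' deposited table). Both subunits did rise against IkkB KO liver and against each single knockout in hepatocytes. Mcm2 had 2.21 FPKM in Double KO and 1.15 in WT livers, and 2.22 in Double KO and 0.768 in WT hepatocytes (q = 0.00379 and 0.00089 in the authors' deposited table).

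The remaining ring subunits differed in how far they moved. Mcm3 had 2.83 FPKM in Double KO and 1.67 in WT livers, and 2.72 in Double KO and 1.35 in WT hepatocytes (q = 0.0184 and 0.00986 in the authors' deposited table). Mcm4 rose in hepatocytes, with 1.99 FPKM in Double KO and 0.974 in WT, while its liver levels of 1.92 in Double KO and 1.38 in WT had q = 0.254 in the authors' deposited table. Mcm7, the most abundant subunit, had 5.66 FPKM in Double KO and 5.59 in WT livers, and 6.61 in Double KO and 4.84 in WT hepatocytes, and did not pass in any comparison. Exons of Mcm7 overlap those of Cops6 by 64 bases and those of Ap4m1 by 321, on the opposite strand in the GENCODE annotation. Cops6 had 93.5 FPKM in Double KO and 107 in WT livers, and Ap4m1 had 6.49 in Double KO and 5.55 in WT. Whether reads were assigned by strand is not given in the sources used here. Summed over the 6 subunits, the ring had 19.0 FPKM in Double KO, 16.2 in Shp2 KO and 11.5 in IkkB KO, against 12.7 in WT livers, and 20.8 FPKM in Double KO, 12.4 in Shp2 KO and 13.0 in IkkB KO, against 9.87 in WT hepatocytes. Cdt1, the loader that brings the ring to origins, had 3.41 FPKM in Double KO and 1.95 in WT livers, and 3.2 in Double KO and 1.61 in WT hepatocytes (q = 0.0148 and 0.0153 in the authors' deposited table). Orc6, another origin recognition subunit, had 3.21 FPKM in Double KO and 3.66 in WT livers and did not pass (q = 0.792 in the authors' deposited table). Cdc6, the loading ATPase, stayed at or below 0.221 FPKM and was never tested.

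Several members, genes of the helicase ring among them, share a promoter feature that the choice of members did not use. The spellings TTTCCCGC, TTTCGCGC, TTTGCCGC and TTTGGCGC, which match the E2F binding consensus, were searched on both strands in the 300 bases from 250 before to 50 after each RefSeq gene start (GRCm38.p6). They occurred in 13 of the 30 members with a promoter window (43.3%), and in 2.6% of all genes with a window. Mcm4, Gins1, Gins2, Pole and Ccne2 had no window in the table. Matches were found in 6 of the 9 members that rose in both tables, in 6 of the 12 never called members that have a window, and in 1 of 9 others. The 5-letter CCAAT box, bound by NF-Y, occurred in 20 of the 30 members (66.7%) and in 41.1% of all genes with a window. The 250 bases before the start are shown, on the gene's own strand, for Mcm5 (chr8:75109259-75109508, plus strand), Mcm6 (chr1:128359706-128359955, minus strand) and one start of Uhrf1 (chr17:56304063-56304312, plus strand). These are the members that rose in both tables and have a match before the start. Mcm10 (chr2:5012792-5013041, minus strand), the member that fell, is set beside them. Capitals mark the E2F-type matches, and Mcm10 has none of these letters in its window. Mcm2, Cdc45 and Chaf1a, which rose in both tables, have no match in their windows either. Whether a match goes with the direction of a difference was not tested.
Mcm5: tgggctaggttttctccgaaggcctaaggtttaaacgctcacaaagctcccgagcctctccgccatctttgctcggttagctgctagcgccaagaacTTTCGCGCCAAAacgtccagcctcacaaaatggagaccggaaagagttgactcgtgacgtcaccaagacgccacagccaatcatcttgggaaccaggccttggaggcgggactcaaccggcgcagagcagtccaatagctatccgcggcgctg
Mcm6: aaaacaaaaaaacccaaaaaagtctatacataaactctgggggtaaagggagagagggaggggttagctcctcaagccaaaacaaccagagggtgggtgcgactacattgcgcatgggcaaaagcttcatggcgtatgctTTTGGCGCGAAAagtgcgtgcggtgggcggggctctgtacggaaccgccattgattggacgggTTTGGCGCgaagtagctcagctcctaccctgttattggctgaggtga
Uhrf1: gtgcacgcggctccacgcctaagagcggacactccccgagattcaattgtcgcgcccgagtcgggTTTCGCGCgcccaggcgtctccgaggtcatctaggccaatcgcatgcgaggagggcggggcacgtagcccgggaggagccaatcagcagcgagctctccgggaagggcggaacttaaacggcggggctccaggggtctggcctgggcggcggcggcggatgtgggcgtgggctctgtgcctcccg
Mcm10: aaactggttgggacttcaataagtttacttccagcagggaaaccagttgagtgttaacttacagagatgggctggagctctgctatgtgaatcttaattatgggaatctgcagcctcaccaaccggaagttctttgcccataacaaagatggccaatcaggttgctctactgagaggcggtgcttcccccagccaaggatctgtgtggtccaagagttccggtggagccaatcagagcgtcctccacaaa
In Mcm5 a pair of matches overlap in the 12 bases TTTCGCGCCAAA, and Mcm6 holds the reverse complement of this run, TTTGGCGCGAAA, beside another match. Mcm3, Cdt1 and Lig1 have their matches within the first 50 transcribed bases.

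Helicase activation genes went both ways. Cdc45, which joins the ring to form the active helicase, had 1.64 FPKM in Double KO, 1.32 in Shp2 KO and 0.694 in IkkB KO, against 0.711 in WT livers. Its hepatocyte levels were 1.4 FPKM in Double KO, 0.916 in Shp2 KO and 0.824 in IkkB KO, against 0.625 in WT, and it rose in Double KO against WT in both (liver q = 0.00503 and hepatocyte q = 0.0317, the authors' deposited table; the hepatocyte call was lost at a Benjamini-Hochberg p of 0.0589 when the p-values were adjusted within that comparison). Mcm10, a scaffold that helps the helicase to start, ran the other way and was far more abundant. Mcm10 had 12.9 FPKM in Double KO, 32.4 in Shp2 KO and 35.4 in IkkB KO, against 49.2 in WT livers. In hepatocytes, Mcm10 had 14.4 FPKM in Double KO, 15.4 in Shp2 KO and 35.3 in IkkB KO, against 38.0 in WT. Double KO was 0.262 times WT in liver and 0.378 times in hepatocytes, with q = 0.000955 and 0.00048 in the authors' deposited table. The knockouts lay below WT in both tables, but IkkB KO did not pass against WT (liver q = 0.0871 and hepatocyte q = 0.816, the authors' deposited table). In hepatocytes Shp2 KO was nearly as low as Double KO (q = 0.83 between them in the authors' deposited table). The GINS subunit genes did not pass. Gins2 had 1.88 FPKM in Double KO and 0.484 in WT livers, a ratio of 3.89, yet q = 0.617 in the authors' deposited table. Its exons overlap those of Gse1, on the opposite strand, by 2758 bases in the GENCODE annotation. Gse1 had 2.93 FPKM in Double KO and 5.84 in WT livers. Gins1 had 2.97 FPKM in Double KO and 3.95 in WT livers (q = 0.461 in the authors' deposited table).

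Polymerase, clamp and clamp loader genes showed small differences. Of these 6, none passed in Double KO liver and Prim1 rose in Double KO hepatocytes, where 11.5% and 9.04% of all tested genes were higher. Prim1, the catalytic primase subunit that makes RNA primers, had 4.73 FPKM in Double KO, 3.29 in Shp2 KO and 2.22 in IkkB KO, against 2.12 in WT hepatocytes (q = 0.00527 for Double KO against WT in the authors' deposited table). Its liver levels were 3.09 FPKM in Double KO and 2.38 in WT (q = 0.5 in the authors' deposited table). Pcna, the sliding clamp, was among the most abundant members and had 19.6 FPKM in Double KO and 17.0 in WT livers, and 13.9 in Double KO and 10.3 in WT hepatocytes, with q = 0.675 and 0.189 in the authors' deposited table. The ratio of Double KO to WT over the 6 genes ran between 1.15 (Pcna) and 1.38 (Pole) in liver, and between 1.29 (Pola1) and 2.23 (Prim1) in hepatocytes. All 6 ratios thus lay above 1 in both tables, and 1 of the 12 passed.

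Of the 5 genes that finish lagging strands, rebuild chromatin or copy its methylation, 4 rose in Double KO liver and 3 in Double KO hepatocytes. Over all tested genes, 11.5% and 9.04% were higher there. Lig1, the ligase that joins Okazaki fragments, had 2.41 FPKM in Double KO, 1.87 in Shp2 KO and 1.2 in IkkB KO, against 0.983 in WT livers. Its hepatocyte levels were 2.51 FPKM in Double KO, 1.82 in Shp2 KO and 1.43 in IkkB KO, against 0.662 in WT (for Double KO against WT, liver q = 0.00442 and hepatocyte q = 0.00048 in the authors' deposited table). Fen1, the flap nuclease of the same step, had 3.68 FPKM in Double KO and 2.94 in WT livers, and 3.34 in Double KO and 2.11 in WT hepatocytes, and did not pass (q = 0.492 and 0.112 in the authors' deposited table). Uhrf1, which guides Dnmt1 to newly copied DNA, had 0.802 FPKM in Double KO, 0.522 in Shp2 KO and 0.201 in IkkB KO, against 0.183 in WT livers. In hepatocytes, Uhrf1 had 0.629 FPKM in Double KO, 0.314 in Shp2 KO and 0.248 in IkkB KO, against 0.0871 in WT. Its ratio of Double KO to WT, 4.39 in liver and 7.23 in hepatocytes, was the largest among the members tested in that comparison, at levels below 1 FPKM (q = 0.000955 and 0.00048 in the authors' deposited table). Chaf1a, the large subunit of chromatin assembly factor 1, had 1.28 FPKM in Double KO and 0.587 in WT livers, and 1.43 in Double KO and 0.64 in WT hepatocytes (q = 0.00442 and 0.00714 in the authors' deposited table). Exons of Chaf1a overlap those of Ubxn6 on the opposite strand by 4648 bases in the GENCODE annotation, and Ubxn6 had 35.7 FPKM in Double KO and 31.1 in WT livers, and 36.5 in Double KO and 39.4 in WT hepatocytes. Chaf1b, the middle subunit, rose in liver with 1.44 FPKM in Double KO and 0.708 in WT (q = 0.0226), and had 1.11 in Double KO and 0.686 in WT hepatocytes (q = 0.25), both in the authors' deposited table.

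Nucleotide supply genes did not move as a group. Rrm2, the S phase subunit of ribonucleotide reductase, had 3.12 FPKM in Double KO, 4.06 in Shp2 KO and 5.99 in IkkB KO, against 3.67 in WT livers. In hepatocytes, Rrm2 had 5.17 FPKM in Double KO, 2.22 in Shp2 KO and 5.36 in IkkB KO, against 2.99 in WT. It therefore rose in IkkB KO against WT in both tables (liver q = 0.0274 and hepatocyte q = 0.0175, the authors' deposited table), and in Double KO hepatocytes (q = 0.0304). Adjusted within the comparison by Benjamini-Hochberg, the p was 0.0791 in IkkB KO liver and 0.0566 in Double KO hepatocytes, so both calls were lost, while that in IkkB KO hepatocytes stayed at 0.0496. Rrm1, its large partner subunit, had 4.21 FPKM in Double KO and 2.71 in WT hepatocytes (q = 0.0343 in the authors' deposited table, and 0.0636 adjusted within the comparison), and 3.41 in Double KO and 2.5 in WT livers (q = 0.2). Tyms, which makes thymidylate, had 2.57 FPKM in Double KO and 2.15 in WT livers and did not pass in any comparison. Tk1, thymidine kinase, had 12.6 FPKM in Double KO, 19.6 in Shp2 KO and 28.5 in IkkB KO, against 16.7 in WT livers, and 12.6 FPKM in Double KO, 15.8 in Shp2 KO and 14.3 in IkkB KO, against 24.2 in WT hepatocytes. No Tk1 difference passed in either table, and its exons overlap those of Afmid by 83 bases on the opposite strand. Afmid had 39.1 FPKM in Double KO, 67.5 in Shp2 KO and 88.0 in IkkB KO, against 53.6 in WT livers.

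The E2F factors and E-type cyclins did not share 1 pattern. E2f1, an activator, had 2.95 FPKM in Double KO, 3.08 in Shp2 KO and 1.44 in IkkB KO, against 1.67 in WT livers, and rose in Double KO (q = 0.0119) and Shp2 KO (q = 0.00442) against WT in the authors' deposited table. Its hepatocyte levels of 2.76 FPKM in Double KO and 1.85 in WT did not pass (q = 0.166 in the authors' deposited table). E2f8, a repressor that is itself switched on in S phase, had 3.25 FPKM in Double KO, 6.9 in Shp2 KO and 1.55 in IkkB KO, against 3.12 in WT livers. It rose in Shp2 KO liver and fell in IkkB KO liver (q = 0.000955 for each in the authors' deposited table), while Double KO liver had a level near that of WT (q = 0.949). In hepatocytes, E2f8 had 4.46 FPKM in Double KO, 2.29 in Shp2 KO and 1.67 in IkkB KO, against 1.98 in WT, and it rose in Double KO against WT (q = 0.00048 in the authors' deposited table). E2f2, another activator, had 0.802 FPKM in Double KO and 0.651 in WT livers, and E2f7, the closest relative of E2f8, stayed at or below 0.154 FPKM and was never tested.

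Cyclin E1, the Cdk2 partner that triggers S phase entry, fell in IkkB KO liver. Ccne1 had 3.04 FPKM in Double KO, 2.76 in Shp2 KO and 1.49 in IkkB KO, against 2.93 in WT livers (q = 0.00785 for IkkB KO against WT in the authors' deposited table). In hepatocytes the order differed, with 0.695 FPKM in Double KO, 1.08 in Shp2 KO and 2.12 in IkkB KO, against 1.07 in WT. IkkB KO was the lowest genotype in liver and the highest in hepatocytes, where its difference from WT had q = 0.0606 in the authors' deposited table. Against IkkB KO, Ccne1 in Double KO rose in liver (q = 0.000955) and fell in hepatocytes (q = 0.00162), both in the authors' deposited table. Ccne2, the other E-type cyclin, had 0.88 FPKM in Double KO and 0.56 in WT livers and did not pass in any comparison.

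**Figure D3:**
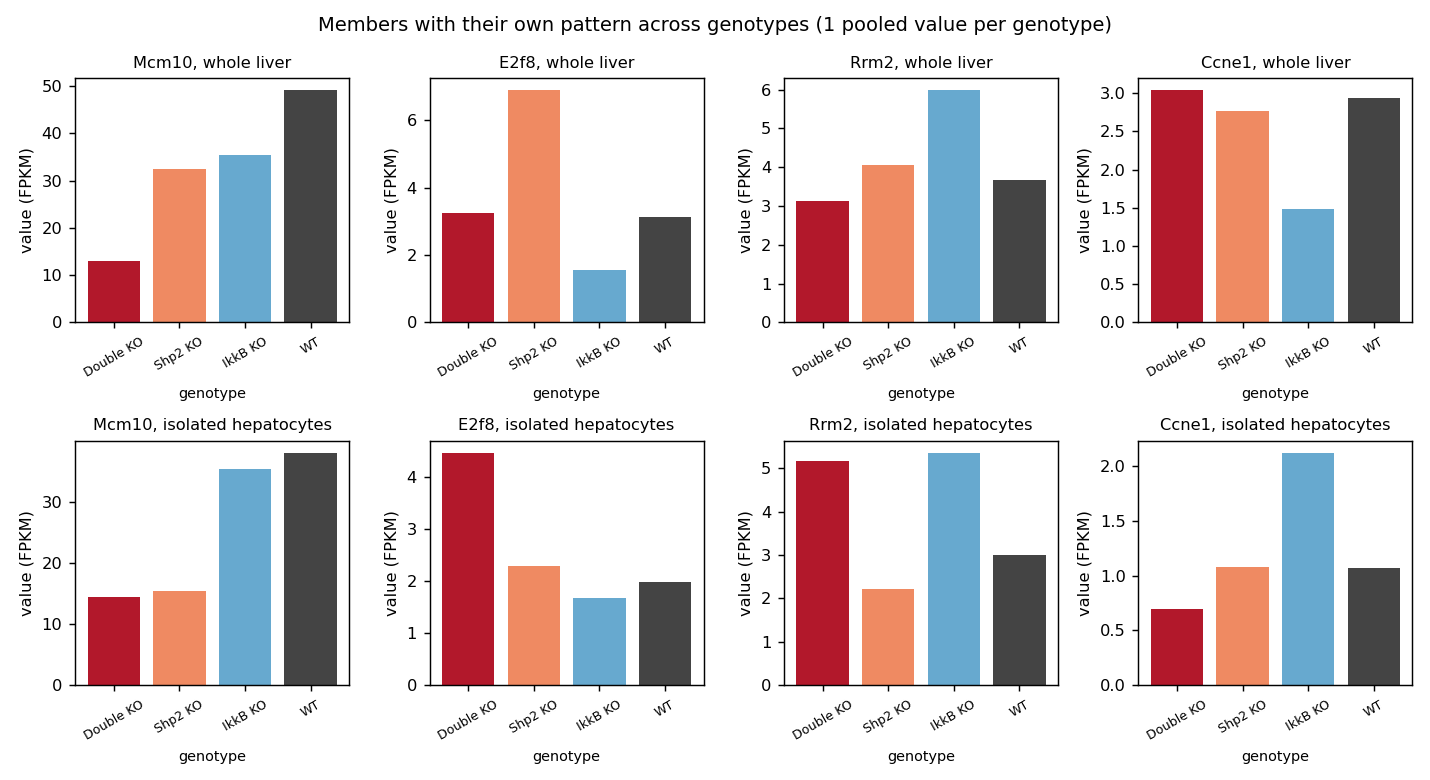
Deposited expression value (FPKM, linear axis from 0) of Mcm10, E2f8, Rrm2 and Ccne1 in each genotype, whole liver above and isolated hepatocytes below, 1 pooled value per bar. Mcm10 is lowest in Double KO in both tables, E2f8 peaks in Shp2 KO liver (6.9) and in Double KO hepatocytes (4.46), and Ccne1 is lowest in IkkB KO liver (1.49) but highest in IkkB KO hepatocytes (2.12).

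By the q-value, each single deletion moved few of these genes. In Shp2 KO liver, Mcm6, Chaf1a, Uhrf1, E2f1 and E2f8 rose and Mcm10 fell, 5 and 1 of 32 tested, where 5.23% of all tested genes were higher and 4.1% lower. The members' median difference was 0.18 on the log2(value + 1) scale, beside -0.03 over all tested genes. There, 24 of the 32 levels lay above WT (75.0%, beside 45.0% of all tested genes). At an unadjusted p under 0.05, 12 members were higher and 1 lower, the same numbers as in Double KO liver against WT. The share of all tested genes at that unadjusted cut was not computed in any comparison. In Shp2 KO hepatocytes, Mcm6 and Lig1 rose and Mcm10 fell, of 31 tested, against 7.13% higher and 4.53% lower of all tested genes. In IkkB KO liver, Rrm2 rose while E2f8 and Ccne1 fell, of 31 tested, against 2.37% higher and 2.17% lower of all tested genes. There, 22 of the 31 levels lay below WT, and 29.0% lay above it, beside 46.7% of all tested genes. The median difference was -0.05, or -0.1 with a pseudocount of 0.1 and -0.11 among members of at least 1 FPKM. In IkkB KO hepatocytes, Mcm6 and Rrm2 rose and none of 31 tested members fell by the Cuffdiff q-value (at an unadjusted p under 0.05, 6 members were higher and 0 lower), against 7.6% higher and 1.81% lower of all tested genes. As a share of the tested members, 15.6% rose in Shp2 KO liver, 6.45% in Shp2 KO hepatocytes, 3.23% in IkkB KO liver and 6.45% in IkkB KO hepatocytes, so the last 3 shares lie near the background. The comparisons with WT share the WT samples within a table.

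By the q-value, many members rose in Double KO liver against IkkB KO liver and none against Shp2 KO liver. Against IkkB KO, 14 of 32 tested members rose in Double KO liver and 2 fell, Mcm10 and Rrm2, where 11.5% of all tested genes were higher and 7.5% lower. E2f2 and Ccne1 were among those that rose, with 0.802 FPKM for E2f2 in Double KO and 0.374 in IkkB KO livers (q = 0.0119 in the authors' deposited table). Against Shp2 KO, none of 32 members rose in Double KO liver by the Cuffdiff q-value, where 7.94% of all tested genes were higher by the same q-value. None was higher at an unadjusted p under 0.05 either. Still, 23 of the 32 levels lay above Shp2 KO (71.9%, beside 49.5% of all tested genes). Mcm10 and E2f8 fell in that comparison, beside 2.83% of all tested genes. In hepatocytes, some members rose in Double KO against each single knockout. Against IkkB KO, 7 of 32 members rose and 2 fell, Mcm10 and Ccne1 (5.75% of all tested genes higher, 5.62% lower). Against Shp2 KO, 5 rose and 0 fell (3.44% higher, 3.31% lower). No member was lower than in Shp2 KO at an unadjusted p under 0.05 either. Mcm2, Mcm5, Mcm6 and E2f8 rose against each of the single knockouts there. The call of Mcm2 against Shp2 KO was lost with Benjamini-Hochberg adjustment of the Cuffdiff p-values within the comparison (adjusted value 0.138), as were those of Chaf1a and Uhrf1 against IkkB KO (0.0541 and 0.0518). For Mcm5, q was 0.0023 against IkkB KO and 0.00354 against Shp2 KO in the authors' deposited table. Shp2 KO and IkkB KO were compared with each other in the liver table, where 7 of 32 members were higher in Shp2 KO and 0 lower, against 5.43% higher and 4.84% lower of all tested genes; at an unadjusted p under 0.05, 13 were higher and 1 lower. The 7 were Mcm2, Mcm5, Chaf1a, Uhrf1, E2f1, E2f8 and Ccne1.

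**Figure D4:**
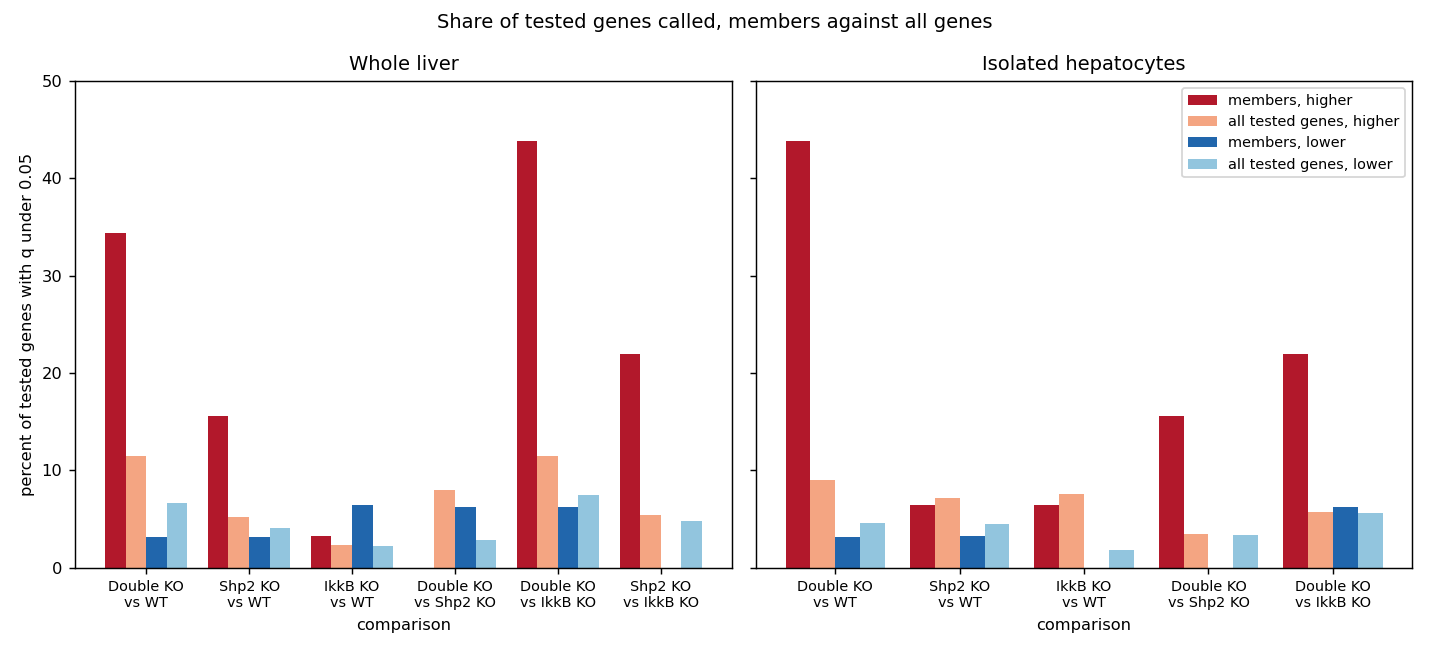
Percent of tested genes with q under 0.05 in each comparison, for the members (dark bars) and for all tested genes (pale bars), higher in red and lower in blue. The tallest bars are the members higher in Double KO liver against IkkB KO and in Double KO hepatocytes against WT, 43.8% each.

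The Double KO difference from WT was set beside the sum of both single differences on the log2(value + 1) scale, as a description with no test. In liver 27 of 35 members lay above the sum, with a median excess of 0.14, and in hepatocytes 28 of 35, with a median of 0.11. Over all genes that reached 0.1 FPKM, the median was 0.03 in liver and -0.01 in hepatocytes, and 55.0% and 48.3% lay above the sum. Ccne1 in liver exceeded the sum by 0.76, and Mcm4 and Mcm5 by 0.54 and 0.5. Tk1 and Rrm2 in liver lay below it, by -1.34 and -0.88, as did Mcm10, by -0.8. In hepatocytes the largest excess was that of E2f8, 0.89, and Ccne1 lay lowest, at -0.88.

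**Figure D5:**
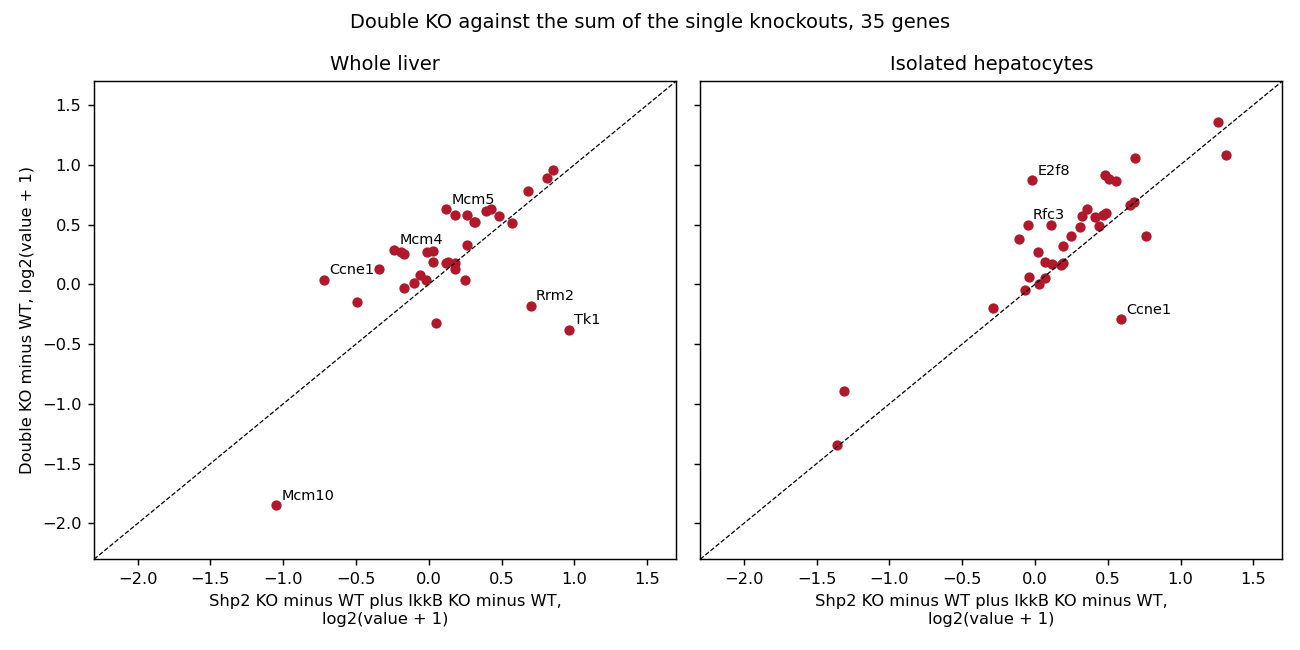
Double KO minus WT (y axis) against the sum of the single knockout differences (x axis) on the log2(value + 1) scale, 1 point per gene, in whole liver (left) and isolated hepatocytes (right), with the dashed line marking equality and names given where the distance is at least 0.5. In liver 27 of 35 points and in hepatocytes 28 of 35 lie above the line.

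Other genes of the pathway were counted as well. In a list of 59 other replication and S phase genes, 3 of 56 tested rose in Double KO liver and 7 of 56 in Double KO hepatocytes against WT, and 0 fell in either. These shares, 5.36% and 12.5%, stand beside 11.5% and 9.04% of all tested genes, so the list's share was below the background in liver and near it in hepatocytes. Dbf4, the activator of the Cdc7 kinase that fires origins, had 3.35 FPKM in Double KO and 1.2 in WT livers, and 3.06 in Double KO and 0.995 in WT hepatocytes (q = 0.000955 and 0.00048 in the authors' deposited table). Asf1b, a histone chaperone, had 1.41 FPKM in Double KO and 0.461 in WT livers, and 1.06 in Double KO and 0.304 in WT hepatocytes (q = 0.00248 and 0.0079 in the authors' deposited table). Neither single knockout of IkkB nor that of Shp2 moved any of 54 tested list members in hepatocytes, and in liver 0 of 54 passed in IkkB KO and 2 rose in Shp2 KO, Dbf4 and Rnaseh2c.

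Of 12 upstream regulators of G1, 10 were tested against WT. In Double KO, 1 rose in liver and 3 in hepatocytes, where 11.5% and 9.04% of all tested genes were higher, and 0 fell in either. In Shp2 KO, 0 rose and 1 fell in liver, and 2 rose and 1 fell in hepatocytes. There, 5.23% and 7.13% of all tested genes were higher and 4.1% and 4.53% lower. In IkkB KO, 0 rose and 0 fell in liver, and 2 rose and 1 fell in hepatocytes. There, 2.37% and 7.6% of all tested genes were higher and 2.17% and 1.81% lower. Ccnd1, cyclin D1, had 22.2 FPKM in Double KO, 5.14 in Shp2 KO and 15.3 in IkkB KO, against 20.3 in WT livers. Ccnd1 fell in Shp2 KO liver against WT (q = 0.000955 in the authors' deposited table). In hepatocytes, Ccnd1 had 7.67 FPKM in Double KO, 4.95 in Shp2 KO and 13.4 in IkkB KO, against 4.93 in WT. It rose there against WT in IkkB KO (q = 0.00048) and in Double KO (q = 0.0269) in the authors' deposited table. Cdkn1a, the p21 inhibitor of cyclin-dependent kinases, had 7.98 FPKM in Double KO, 2.14 in Shp2 KO and 1.09 in IkkB KO, against 1.8 in WT livers, and it rose in Double KO against each of the others. In hepatocytes, Cdkn1a had 14.3 FPKM in Double KO, 6.38 in Shp2 KO and 2.73 in IkkB KO, against 11.5 in WT; both single knockouts fell against WT, and Double KO did not pass (q = 0.449 in the authors' deposited table). Cdkn2c, the p18 inhibitor of Cdk4 and Cdk6, had 7.26 FPKM in Double KO, 7.09 in Shp2 KO and 4.06 in IkkB KO, against 2.72 in WT hepatocytes, and rose in Double KO and Shp2 KO against WT. Myc had 6.39 FPKM in Double KO, 6.21 in Shp2 KO and 3.9 in IkkB KO, against 3.17 in WT hepatocytes. It rose there against WT in Double KO (q = 0.00714) and in Shp2 KO (q = 0.00662) in the authors' deposited table. Its liver levels were 4.14 FPKM in Double KO and 5.12 in WT (q = 0.557 in the authors' deposited table). Cdk4 had 24.5 FPKM in Double KO and 23.9 in WT hepatocytes, and 27.6 in Double KO and 29.2 in WT livers, and did not pass against WT. The mitotic genes Mki67, Top2a, Cdk1 and Ccnb1 all rose in Double KO against WT in both tables, Cdk1 with 3.16 FPKM in Double KO and 0.698 in WT livers and 2.85 in Double KO and 0.458 in WT hepatocytes. Against WT, 4 of 4 also rose in Shp2 KO liver and 3 of 3 tested in hepatocytes of each single knockout, but 0 of 2 tested in IkkB KO liver.

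In all, 19 of the 35 members passed in at least 1 of the 6 liver and 5 hepatocyte comparisons, and 16 passed in none. The share of all genes that passed in at least 1 of these comparisons was not computed, so 19 has no background beside it. Of these 16, 13 were tested in each table, and 10 of the 13 had a higher level in Double KO than in WT in liver and 10 in hepatocytes. Over all tested genes, 46.3% in liver and 51.9% in hepatocytes had a higher level in Double KO than in WT. The median ratio of these 13 members was 1.19 in liver and 1.35 in hepatocytes. Protein-coding exons on the opposite strand overlap 10 of the 35 members in the GENCODE annotation, which is of a different build from mm9. These are Mcm7, Gins2, Tk1, Rfc4, Fen1, Chaf1a, Cdc45, Lig1, Orc6 and Ccne2. Their values may be less certain for that reason, as the strand setting is not given. The shared bases ran from 64 (Mcm7 with Cops6) to 4648 (Chaf1a with Ubxn6). The overlapping genes of Cdc45 and Lig1 had no values here, and the effect of the overlaps was not tested.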

How the data were processed

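PolyA RNA of 24 samples was sequenced on Illumina TruSeq v2 libraries, and the labels place 3 biological replicates in each of 8 groups. RNA was extracted with different RNeasy kits from whole liver and from hepatocytes, per the labels' protocols. The submitters' processing notes name FastQC, Cuffdiff and the build mm9. Aligner, annotation and strand setting: not given in the sources used here. The authors deposited 1 table for each sample type, with 6 genotype pairs in liver and 5 in hepatocytes. The deposited expression values have no unit in the header (other), and are called FPKM by the convention of Cuffdiff. The log2 fold change and the test statistic, a score, were deposited by the authors and left out. Each p-value and q-value is the authors' Cuffdiff result, and the smallest p-value is 5e-05 in both tables. No column holds a replicate (0 in each table), counts or library sizes, so depth, SD and intervals are unknown.

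Members, role groups and other lists were chosen with earlier results of these data known. Genes were called at q under 0.05 when tested and at 0.1 FPKM or more in 1 of the genotypes. Differences used a pseudocount of 1. All members could be named; other pathway genes were named by smallest q. Scripts ran in Python 3.11.15 with pandas 2.3.3, matplotlib 3.10.9, scipy 1.17.1 and numpy 2.4.6, and the calling code was tested on simulated data. Promoter windows came from RefSeq (GRCm38.p6) by gene symbol and exon overlaps from GENCODE, a different build from mm9. Alternatives were q under 0.01, adjustment within a comparison, other filters on low values, a minimum difference, the pseudocount 0.1 and centring.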

Additional observations from a re-analysis of the deposited data

How the results depend on the processing

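With a log2(value + 1) difference of at least 1 required in addition to q, which compresses low values, Double KO liver kept 0 higher and 1 lower member against WT, Shp2 KO and IkkB KO alike, and the lower one was Mcm10 each time. The 11 higher calls against WT and the 14 against IkkB KO were thus lost, and the balance of those counts turned from higher to lower. In liver, 0 members were called in Shp2 KO or IkkB KO against WT, and 1 was higher in Shp2 KO than in IkkB KO. In hepatocytes, 4 members were called in Double KO against WT (3 higher, 1 lower), 1 in Shp2 KO (Mcm10, lower, where 2 had been higher and 1 lower) and 0 in IkkB KO, with 0 in Double KO against Shp2 KO and 2 against IkkB KO (1 higher, 1 lower). At q under 0.01, 3 members stayed in Shp2 KO liver, against 6 at 0.05, and 0 in IkkB KO hepatocytes, against 2. With a pseudocount of 0.1, the median excess of Double KO over the sum of the single differences was 0.32 in liver and 0.18 in hepatocytes. Adjustment within each comparison kept 73 of 80 single calls. The 7 others were Rrm2 in IkkB KO liver, Cdc45, Rrm1 and Rrm2 in Double KO against WT hepatocytes, Mcm2 against Shp2 KO, and Chaf1a and Uhrf1 against IkkB KO in Double KO hepatocytes, with adjusted p-values between 0.0518 and 0.138. A pseudocount of 0.1 also raised the members' median difference of IkkB KO from WT hepatocytes to 0.28, against 0.14. No median changed sign under any alternative. No paired analysis was possible because the tables hold no value per replicate, and for the same reason no replicate could be left out. Depth cannot be judged, and differences of members below 1 FPKM rest on few fragments.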
